A study of Homo sapiens with 15 samples.

Results

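RAB proteins are small GTPases that give membranes of the cell their identity. In the GTP-bound form a RAB sits on its own compartment and recruits tethers, motors and sorting proteins, and in the GDP-bound form it is held in the cytosol. Some members serve steps that every cell needs, such as traffic from the endoplasmic reticulum (ER) to the Golgi, endocytosis and recycling, while others serve specialised steps such as the release of synaptic vesicles, hormone granules or pigment granules. The genes described here are all protein-coding genes on the autosomes and the X chromosome whose symbol is RAB followed by a number and at most 1 letter. There were 62 of them among 19747 protein-coding genes. By textbook knowledge of normal tissues 31 were classed as ubiquitous and 17 as tissue-restricted. A further 14 were not classed because their expression pattern was not known firmly enough. The classes were chosen with earlier results of these data known. RNA was not analysed here, so the classes say nothing of expression in the cells studied.

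The cells were K562, an established human chronic myelogenous leukaemia line that carries the BCR-ABL1 fusion and has erythroid features, and were given no treatment. Chromatin was cross-linked and precipitated with BG4, an antibody against G-quadruplexes (G4s), in which runs of guanine lie side by side and form flat layers of 4 bases that stack. The 5 libraries were labelled 1a and 1c, and 2a, 2b and 2c, and the number was taken as the biological replicate and the letter as a technical library of it. Values given per replicate stand in that order, and labels do not say whether the replicates were separate cultures. The 2 K562 input libraries without antibody and the bisulfite libraries of HaCaT keratinocytes, 4 treated with entinostat and 4 controls, were not analysed here. The authors' peak lists held 8059 to 12495 peaks per library. The names of single peaks in the list labelled 2a held the letter c and those in 2c the letter a; the labels were followed, so values of these libraries may be exchanged. The authors' high-confidence list held 8955 regions, identical to the stretches covered by peaks of at least 3 of the 5 libraries. A gene was counted with a region when at least 1 base of a region lay within 1 kb of a start site of the gene. The number of reads per library is unknown, so the absence of a peak means that none was called at that depth. All positions are on hg19.

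A high-confidence region was present at 37 of the 62 RAB genes (59.7%), against 6797 of all 19747 protein-coding genes (34.4%). A region with a peak in all 5 libraries was present at 26 RAB genes (41.9%), against 21.9% of all genes. At the other end, 20 RAB genes (32.3%) had no peak in any library, against 52.8% of all genes. The 37 genes carried 44 regions, since RAB1B, RAB3D, RAB5B, RAB11B, RAB30, RAB33B and RAB40C had 2 each. At RAB5B and at RAB30 the 2 regions had the same strongest fold in 1a and in 2c, so they need not be separate sites. All 37 had a strict CpG island, a CpG-rich stretch of at least 500 bp, within 1 kb of a start site. Such islands lay at 55 of the 62 RAB genes (88.7%) and at 74.8% of all genes. Regions were present at 37 of these 55 (67.3%), against 45.2% of all genes with an island. None of the 7 RAB genes without an island had a region, and 2.51% of all such genes did. Genes were counted here as a description of a family chosen by name, and no test was made over the members.

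Sequences of G4 motifs are shown first, because motifs of the same form lay at RAB genes with BG4 peaks and at RAB genes without. A G4 motif was GGG or a longer G run, found 4 times in a row, the spacers between being any 1 to 7 bases (N), on either of both strands. All sequences are from the GRCh37 reference, written 5′ to 3′ on the strand named, with capitals for runs of 3 or more G. The first set comes from the strongest region of ubiquitous members with peaks in all 5 libraries. It holds only members whose region had a motif of at most 30 bases outside annotated UTRs. The RAB10 motif lay at chr2:26256781-26256806 on the minus strand, the RAB8B motif at chr15:63481699-63481719 on the plus strand, the RAB11B motif at chr19:8455698-8455722 on the plus strand and the RAB1A motif at chr2:65357486-65357506 on the minus strand.

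RAB10: GGGGagaaGGGaGGGGcgagaaaGGG

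RAB8B: GGGGcGGGGcgtGGGGcGGGG

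RAB11B: GGGatGGGGGcGGGGtttttaGGGG

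RAB1A: GGGGaGGGGagcaGGGaGGGG

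The second set comes from tissue-restricted members with a strict CpG island but no peak in any library, taken by the number of motifs near the main start site. Each is the motif of at most 30 bases nearest to that site that lay outside annotated UTRs. The RAB6B motif lay at chr3:133614753-133614781 on the plus strand, the RAB15 motif at chr14:65439068-65439087 on the minus strand and the RAB38 motif at chr11:87908658-87908682 on the plus strand. Both sets hold 4 close runs of G because both were picked for having a motif. These letters do not say which motif folds in the cell.

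RAB6B: GGGGcccgcGGGGctgcGGGGctGGGGGG

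RAB15: GGGGaaGGGGcGGGcaGGGG

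RAB38: GGGcggcGGGGcGGGGGctGGGGGG

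Ubiquitous members were then compared with tissue-restricted members, in classes that were not set blind to earlier results of these data. Regions were present at 27 of 31 ubiquitous members (87.1%), against 4 of 17 tissue-restricted members (23.5%), a difference of 63.6 percentage points. Members not classed lay between, with 6 of 14 (42.9%). Regions with a peak in all 5 libraries were found at 20 ubiquitous (64.5%) and 2 tissue-restricted members (11.8%), against 21.9% of all genes. No peak in any library was found at 1 ubiquitous member (3.23%) and 11 tissue-restricted members (64.7%), against 52.8% of all genes. The ubiquitous member was RAB29. The tissue-restricted members were RAB3C, RAB6B, RAB9B, RAB15, RAB17, RAB25, RAB27B, RAB33A, RAB38, RAB39B and RAB44.

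The order of the classes was the same in each library. Peaks lay within 1 kb of a start site of ubiquitous members in 77.4% and 74.2% of cases in replicate 1 and in 83.9%, 87.1% and 90.3% in replicate 2. The shares of tissue-restricted members were 29.4% and 29.4% in replicate 1 and 17.6%, 17.6% and 29.4% in replicate 2. All 5 values of the ubiquitous class lay above all 5 of the tissue-restricted class. Averaged within biological replicates first, the shares were 81.5% ± 7.98 in the ubiquitous class and 25.5% ± 5.55 in the tissue-restricted class (SD, n = 2). All protein-coding genes had a peak in 38% and 32.1% of cases in replicate 1 and in 31.5%, 35% and 38.6% in replicate 2. The difference between the classes was 46.4 points in replicate 1 and 65.5 points in replicate 2, a mean of 56 ± 13.5 (SD, n = 2). With 2 biological replicates no test of this difference was made.

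**Figure D1:**
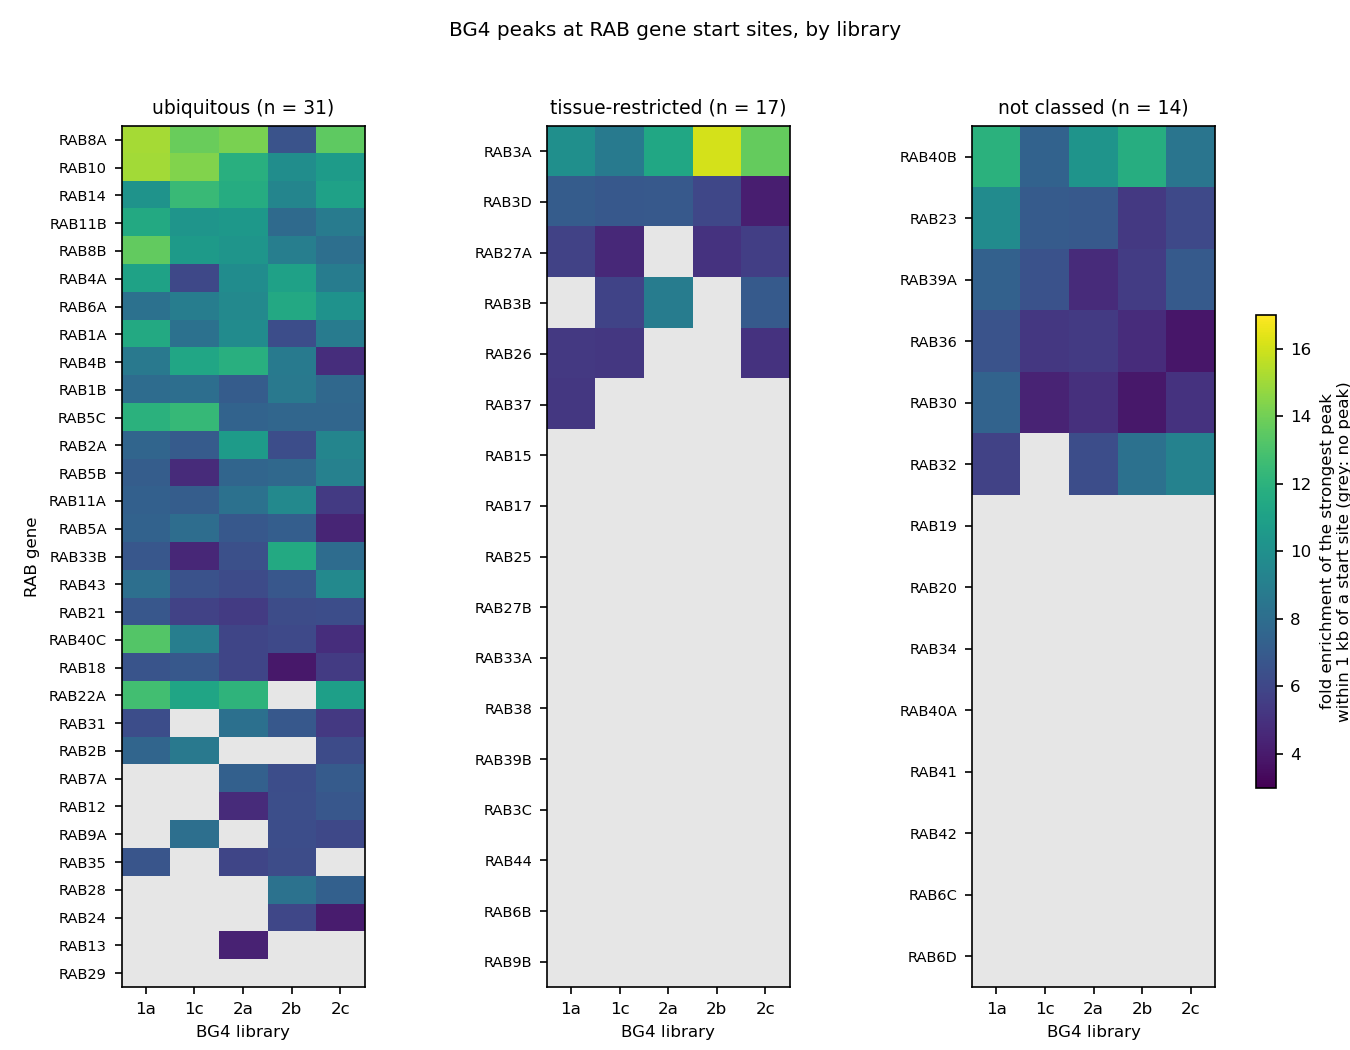
Fold enrichment over local background of the strongest BG4 peak within 1 kb of a start site, for each RAB gene (rows) and library (columns), in panels for ubiquitous, tissue-restricted and not classed members; grey means no peak. The ubiquitous panel is filled in all 5 columns for 20 of 31 genes, and the tissue-restricted panel for RAB3A and RAB3D.

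**Figure D2:**
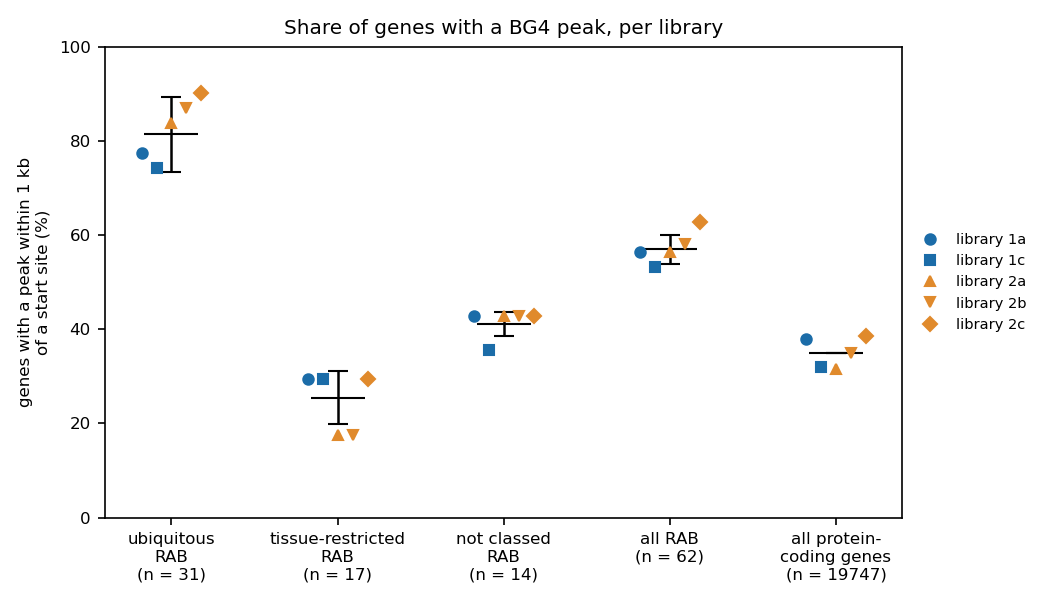
Share of genes with a BG4 peak within 1 kb of a start site (y axis, %) in each library, for the RAB classes, all RAB genes and all protein-coding genes; the long dash and bar give the mean and SD over the 2 biological replicates. Ubiquitous members lie between 74.2% and 90.3%, tissue-restricted members between 17.6% and 29.4%.

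Sequence near the start site is given beside this difference, and its part in it was not tested. Median GC content within 1 kb of the main start site was 58.5% in ubiquitous members (range 49.8 to 71.3) and 59.0% in tissue-restricted members (46.6 to 69.2). A strict CpG island was present at 30 of 31 ubiquitous members and at 14 of 17 tissue-restricted members. Within these, 27 of 30 ubiquitous members had a region (90.0%), against 4 of 14 tissue-restricted members (28.6%), a difference of 61.4 points. A G4 motif within 1 kb of the main start site was found at 30 of 31 ubiquitous members (96.8%), 11 of 17 tissue-restricted members (64.7%) and 68.6% of all genes. Among members with both an island and a motif there, 26 of 29 ubiquitous members and 3 of 11 tissue-restricted members had a region, and 46.9% of all such genes did. The median number of annotated start sites was 2 for ubiquitous and 1 for tissue-restricted members. Over members with 1 start site, 6 of 6 ubiquitous members had a region and 2 of 10 tissue-restricted members did, against 23.8% of all genes with 1 start site. The counts were 9 of 11 and 1 of 2 with 2 start sites (34.5% of all genes), 8 of 9 and 0 of 2 with 3 to 4 (40.7%), and 4 of 5 and 1 of 3 with 5 or more (46.7%), the ubiquitous class given before the tissue-restricted one. Summing the shares of all genes of the same island class, GC quintile and start site number gave 14.5 genes for the ubiquitous class, where 27 were observed, and 5.98 genes for the tissue-restricted class, where 4 were observed.

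**Figure D3:**
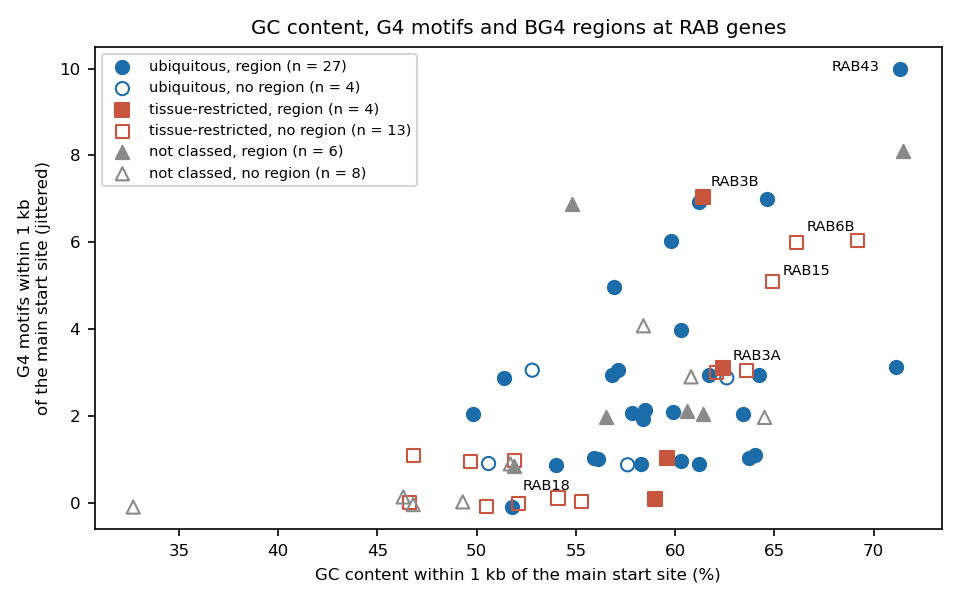
GC content (x axis, %) and number of G4 motifs (y axis, moved slightly up or down so that points do not cover each other) within 1 kb of the main start site of each RAB gene, by class; filled symbols have a high-confidence BG4 region. Open symbols of the tissue-restricted class, such as RAB6B with 6 motifs and RAB15 with 5, lie among filled symbols of the ubiquitous class.

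For role groups, the matched sum is the summed shares of all genes of the same island class, GC quintile and start site number. Members of the ER and Golgi had a region at 9 of 13 genes, against a matched sum of 5.58 and 34.4% of all genes. All 8 ubiquitous members of this group had one, namely RAB1A, RAB1B, RAB2A, RAB2B, RAB6A, RAB18, RAB33B and RAB43. RAB1A and RAB1B control traffic from the ER to the Golgi. The strongest RAB1A peaks had folds over local background of 11.5 and 8.24 in replicate 1 and 9.75, 6.28 and 8.85 in replicate 2. For RAB1B they were 7.97 and 8.04 in replicate 1 and 7.09, 8.68 and 7.71 in replicate 2. In this pair of closely related genes the peaks were present in all 5 libraries, and the RAB1A region (chr2:65357250-65357620) ended 10 bp upstream of a start site and held 2 motifs on the strand of the gene. RAB1B had a region over its start site (chr11:66035858-66036124) and a further region 797 bp upstream of it, the farthest from a start site of the 44, which gave the value in 2c.

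RAB6A, which acts at the Golgi in traffic back to the ER, had folds of 8.22 and 8.91 in replicate 1 and 9.58, 11.4 and 10.2 in replicate 2. Its region (chr11:73472096-73472511) covered a start site and held no motif. RAB6B, its brain-expressed relative, had no peak in any library, and 6 motifs lay within 1 kb of its main start site, against 1 for RAB6A, and GC content there was 66.1%, against 63.7%. RAB6C and RAB6D, close copies of each other on chromosome 2, also had no peak. RAB6A, RAB6C and RAB6D are near-identical in part, and the treatment of reads that match several copies is not stated, so the values of RAB6C and RAB6D are uncertain. RAB2A (folds 7.57 and 7.05 in replicate 1 and 10.7, 6.33 and 9.34 in replicate 2) had peaks in all libraries. Its relative RAB2B had a region in 3 of them, and that region lay nearer to the start of the neighbouring gene TOX4. RAB18, known for its place at lipid droplets and the ER, had peaks in all 5 libraries with folds of 3.89 to 6.86 and no motif within 1 kb of any start site. The brain and lymphocyte member RAB33A had no peak, whereas RAB33B, which acts at the Golgi and in autophagy, had folds of 4.58 to 11.5. RAB30, a Golgi member, had peaks in all 5 libraries with folds of 3.89 to 7.46, but neither of its regions was covered by all 5, and RAB41 had no peak. RAB43, which acts in ER to Golgi traffic, had folds of 6.18 to 9.60 and 10 motifs within 1 kb of its main start site, the most of any RAB gene.

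Early and recycling endosome members had a region at 12 of 15 genes, 80.0% and the highest share of the role groups. The matched sum was 6.41. All 12 ubiquitous members had a region, and the 3 tissue-restricted members, RAB15 (neuronal), RAB17 and RAB25 (both epithelial), had no peak. RAB14, which acts between Golgi and endosomes, had folds of 10.2 and 12.5 in replicate 1 and 11.6, 9.37 and 11.0 in replicate 2. The lowest percentile among the lists was 84.8, and its region (chr9:123964114-123964428) held no G4 motif. RAB11B, of the recycling endosome, had folds of 11.5 and 10.3 in replicate 1 and 10.5, 7.82 and 8.85 in replicate 2. It had a pair of regions in all 5 libraries, the stronger of which in 4 of them (chr19:8455521-8455835) lay downstream of a start site and held the motif shown above. RAB11A had folds of 5.38 to 9.60.

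The RAB5 genes, whose products are the master GTPases of the early endosome, each had a region in all 5 libraries. Folds were 11.96 and 12.4 in replicate 1 and 7.48, 7.60 and 7.61 in replicate 2 for RAB5C. They ran from 4.43 to 8.01 for RAB5A and from 4.75 to 9.16 for RAB5B. Percentiles of RAB5C were 92.6 and 96.7 in replicate 1 and 64.6, 74.4 and 75.9 in replicate 2, so it ranked higher in both lists of replicate 1. The RAB4 pair of fast recycling both had peaks in all libraries, with folds of 6.02 to 11.1 for RAB4A and 4.81 to 11.8 for RAB4B. RAB22A, of early endosomes, had folds of 12.8 (1a), 11.2 (1c), 12.1 (2a) and 10.9 (2c), at percentiles of 93.8 to 96.9, but no peak in 2b. RAB21, of integrin endocytosis, had peaks in all 5 libraries, RAB31 in 4 and RAB35, of recycling to the plasma membrane, in 3.

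Members of the late endosome, lysosome and autophagy were called less evenly, with a region at 3 of 6 genes (matched sum 2.73). None had a region in all 5 libraries, against 21.9% of all genes. RAB7A, the central GTPase of the late endosome, had no peak in 1a or 1c and folds of 7.30 in 2a, 6.33 in 2b and 7.04 in 2c. RAB12 likewise had no peak in replicate 1 and folds of 4.73, 6.37 and 6.80 in 2a, 2b and 2c. These regions, at chr3:128444843-128444974 and chr18:8609344-8609445, were 2 of 44 RAB regions that rested on replicate 2 alone, a share of 4.55% against 2.81% of all regions at protein-coding start sites. RAB9A, of transport from endosomes to the Golgi, had folds of 8.13 in 1c, 6.33 in 2b and 6.02 in 2c. RAB24, an autophagy member, had peaks in 2b and 2c and so missed the high-confidence list. RAB29, of the lysosome and the LRRK2 kinase pathway, and the brain member RAB9B had no peak. Genes of this group had a peak in 8.33% of cases in replicate 1 and 55.6% in replicate 2 (mean 31.9% ± 33.4, SD, n = 2), the widest spread among the role groups. In a group of 6 genes a single gene makes up 16.7%.

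Constitutive exocytosis, tight junction and cilium members had a region at 4 of 7 genes (matched sum 2.92), all in all 5 libraries. RAB10, which acts in exocytosis and in delivery of the glucose transporter GLUT4, had the highest lowest percentile of fold among RAB genes, 93.3. Its folds were 15.1 and 14.3 in replicate 1 and 11.8, 9.88 and 10.7 in replicate 2. The region (chr2:26256550-26257007, 458 bp) covered the start site and held 4 motifs, 3 of them on the strand of the gene. By percentile in single lists, regions of other RAB genes were above it in all lists but 1c. These were RAB8A in 1a, 2a and 2c, RAB3A in 2b and 2c, RAB22A in 2a and 2c, and RAB14 in 2c. In 2b RAB4A, RAB6A, RAB33B and RAB40B were above it as well. All of these regions were motif-free. The stretch of 300 bases directly upstream of the RAB10 start site, chr2:26256653-26256952 on the plus strand, is shown. It lies in the region that ranked first by lowest percentile, which holds motifs. The RAB10 motif shown above is on the other strand and appears in this stretch as runs of C.

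RAB10 upstream: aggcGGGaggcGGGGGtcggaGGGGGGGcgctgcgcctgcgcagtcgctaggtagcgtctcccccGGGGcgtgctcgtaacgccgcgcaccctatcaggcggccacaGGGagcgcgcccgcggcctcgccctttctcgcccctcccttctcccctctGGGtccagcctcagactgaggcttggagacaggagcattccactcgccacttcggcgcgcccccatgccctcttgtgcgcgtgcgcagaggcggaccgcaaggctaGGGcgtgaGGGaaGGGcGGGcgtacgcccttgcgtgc

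RAB8A and RAB8B direct exocytosis and traffic into the primary cilium. Folds at RAB8B were 13.6 and 10.6 in replicate 1 and 10.3, 8.98 and 8.12 in replicate 2. At RAB8A they were 15.1 and 13.8 in replicate 1 and 14.2, 6.58 and 13.5 in replicate 2. The RAB8A region (chr19:16222104-16222713, 610 bp) was the widest of the 44 and held no motif, whereas the RAB8B region (chr15:63481526-63481857) held 2. RAB23, a cilium member that acts on Hedgehog signalling, had folds of 9.73 and 7.05 in replicate 1 and 6.92, 5.31 and 6.07 in replicate 2. RAB13, of tight junctions, had a peak in 2a alone, with a fold of 4.33, and was the only ubiquitous member without a strict CpG island. RAB28 had peaks in 2b and 2c, and RAB34 had none. The nearest region to RAB34 lay 1153 bp from a start site, the closest of the genes counted without a region. The next was RAB25 at 6386 bp, while the most distant gene counted with a region was RAB35 at 122 bp.

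Members of regulated secretion and lysosome-related organelles had a region at 5 of 11 genes, near the matched sum of 4.29. Of these, 2 were in all 5 libraries. This group held 10 tissue-restricted members and 1 not classed. RAB3A, which regulates synaptic vesicle release in neurons, ranked with the strongest ubiquitous genes. Its folds were 9.95 and 8.74 in replicate 1 and 11.4, 16.1 and 13.7 in replicate 2, with a lowest percentile of 81.4, the fourth highest of all RAB genes. The region (chr19:18314814-18315251) covered the start site and no other protein-coding start lay within 1 kb of it. It held no G4 motif as defined here. The 300 bases directly upstream of the start site, chr19:18314853-18315152 on the plus strand, which is opposite to the gene, are shown because they carry many runs of G and yet no motif.

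RAB3A upstream: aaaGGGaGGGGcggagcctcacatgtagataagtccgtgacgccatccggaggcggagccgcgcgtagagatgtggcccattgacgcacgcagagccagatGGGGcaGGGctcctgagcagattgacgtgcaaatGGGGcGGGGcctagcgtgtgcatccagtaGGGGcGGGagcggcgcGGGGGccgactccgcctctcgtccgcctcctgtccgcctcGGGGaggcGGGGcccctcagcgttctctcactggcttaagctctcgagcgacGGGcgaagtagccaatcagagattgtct

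Of the other RAB3 genes, RAB3D had a lower fold than RAB3A in each library, and RAB3B did in the 3 libraries where it had a peak. RAB3D, of exocrine granules, had folds of 7.10 and 6.86 in replicate 1 and 6.90, 5.96 and 4.17 in replicate 2. These are the strongest peaks of a pair of regions. The region in all 5 libraries lay nearest to the start of TMEM205 and had folds of 7.10 and 6.86 in replicate 1 and 4.73, 5.40 and 4.17 in replicate 2. The further region, over a RAB3D start site, had peaks in 1c, 2a and 2b with folds of 6.53, 6.90 and 5.96. RAB3B, of endocrine and neuronal secretion, had folds of 5.81 in 1c, 8.85 in 2a and 6.94 in 2c and no peak in 1a or 2b. RAB3C had no peak. RAB27A, which docks melanosomes and the granules of cytotoxic lymphocytes, had a region in 4 libraries with folds of 4.61 to 5.77. RAB27B, of platelets and secretory glands, had no peak. RAB32, of lysosome-related organelles, had a region in 4 libraries, and the melanosome member RAB38 had no peak. RAB26, of secretory granules, had peaks in 1a, 1c and 2c with folds of 5.08 to 5.31, but the peak of 1c lay apart from the other 2, so no stretch was covered by 3 libraries. RAB37 had a peak in 1a alone, and RAB44, a large atypical member of blood granulocytes and mast cells, had none.

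The RAB40 proteins carry a SOCS box through which they serve as adaptors of cullin ubiquitin ligases. RAB40B had folds of 11.96 and 7.39 in replicate 1 and 10.2, 11.7 and 8.42 in replicate 2. RAB40C had folds of 13.3 and 8.97 in replicate 1 and 5.91, 6.06 and 4.81 in replicate 2, and its region over a start site (chr16:639808-640180) held 3 motifs. The value in 2a came from its other region, and the fold in 2a over the start site was 4.49. RAB40A on the X chromosome had no peak and no strict CpG island, and is uncertain because it has close copies. Of the 7 genes without a role here, RAB36 and RAB39A had a region in all 5 libraries. The matched sum for any region was 2.21. RAB36 ends 14702 bp from the start of BCR, a partner in the fusion gene of K562, on chromosome 22. Its folds were 6.60 and 5.27 in replicate 1 and 5.38, 4.78 and 3.86 in replicate 2, with a lowest percentile of 5.80. RAB39A had folds of 7.37 and 6.55 in replicate 1 and 4.73, 5.47 and 6.95 in replicate 2, and its region lay nearest to the start of the neighbouring gene SLC35F2. RAB19, RAB20, RAB39B, RAB42 and RAB6D had no peak.

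**Figure D4:**
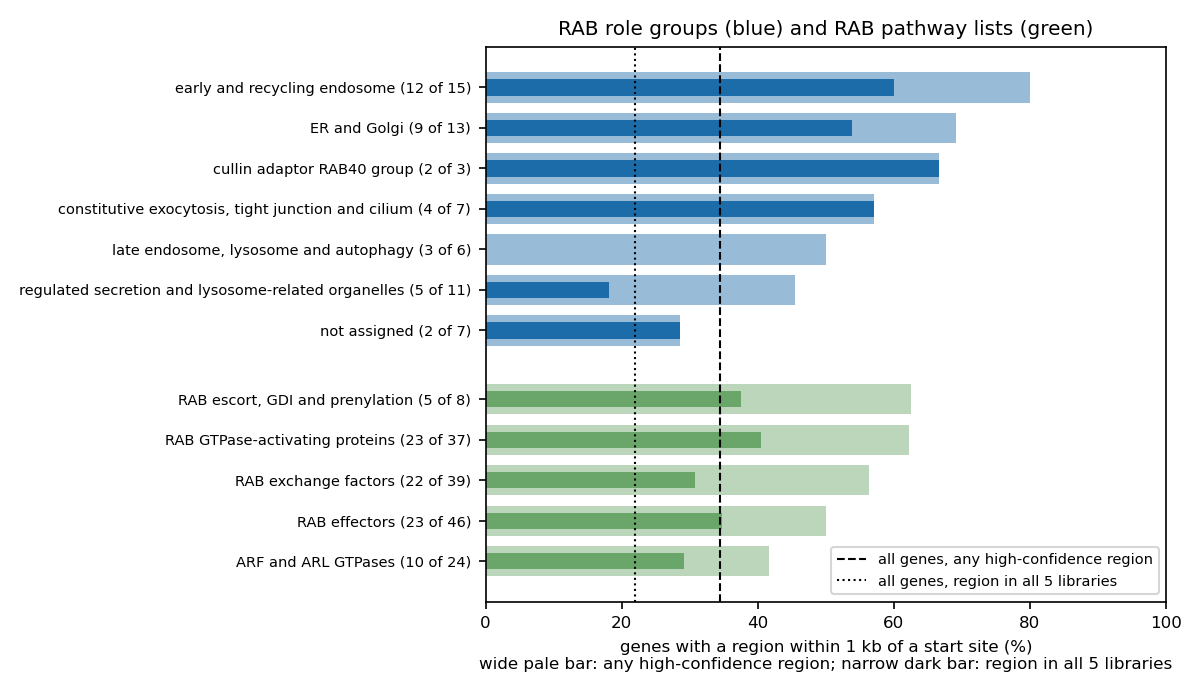
Share of genes with a BG4 region within 1 kb of a start site (x axis, %) for the RAB role groups (blue) and the RAB pathway lists (green); wide pale bars count any high-confidence region, narrow dark bars regions in all 5 libraries, and the dashed and dotted lines give the same shares of all protein-coding genes (34.4% and 21.9%). Early and recycling endosome genes reach 80.0%, and the late endosome group has no region in all 5 libraries.

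Position and composition of the 44 regions were set beside those of BG4 regions at all protein-coding genes. The middle of the region lay upstream of the nearest start site in 88.6% of RAB regions and in 82.9% of the 6695 regions at any protein-coding gene, with median offsets of −67 bp and −64.5 bp. A start site was covered by 68.2% of RAB regions and 68.5% of all. Median width was 253 bp against 215 bp, and median GC content 69.8% against 71.1%. A G4 motif was found in 12 of 44 RAB regions (27.3%), against 37.3% of all such regions. With loops of up to 12 bases the shares were 47.7% and 53.2%, and with runs of 2 or more G they were 93.2% and 93.9%. In 9 of the 12 regions a motif lay on the strand of the gene and in 6 on the other strand, 3 of them having both. The strand was not counted for regions at all genes, so a preference cannot be read from these counts. The tissue-restricted class had no motif in its 5 regions, and the ubiquitous class had one in 10 of 32.

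Rank and motif content are given side by side. In 12 members the fold was at or above the list's 50th percentile in every library, and 10 of these were ubiquitous. The same count was not made over all protein-coding genes, so it cannot be said whether 12 is high or low. Ubiquitous members made up 20 of the 27 with peaks in all 5 libraries. In the strongest region present in all 5 libraries, 7 of these 12 had no motif. Those were RAB14, RAB3A, RAB6A, RAB40B, RAB5C, RAB1B and RAB8A. Regions without a motif were common, since one lay in only 27.3% of the 44 RAB regions and 37.3% of all regions at protein-coding genes. Median percentiles of fold of the RAB regions in the lists were 63.2 and 65.6 in replicate 1 and 57.0, 55.3 and 66.7 in replicate 2, against 68.7, 65.2, 57.7, 58.9 and 63.0 for all regions at protein-coding genes. The RAB median was the higher of the pair in 1c and 2c and the lower in the other 3 lists. For 5 of the 37 genes with a region every region also lay within 1 kb of the start of another protein-coding gene (RAB2B, RAB5A, RAB5C, RAB36 and RAB39A), and for 32 at least 1 region did not.

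**Figure D5:**
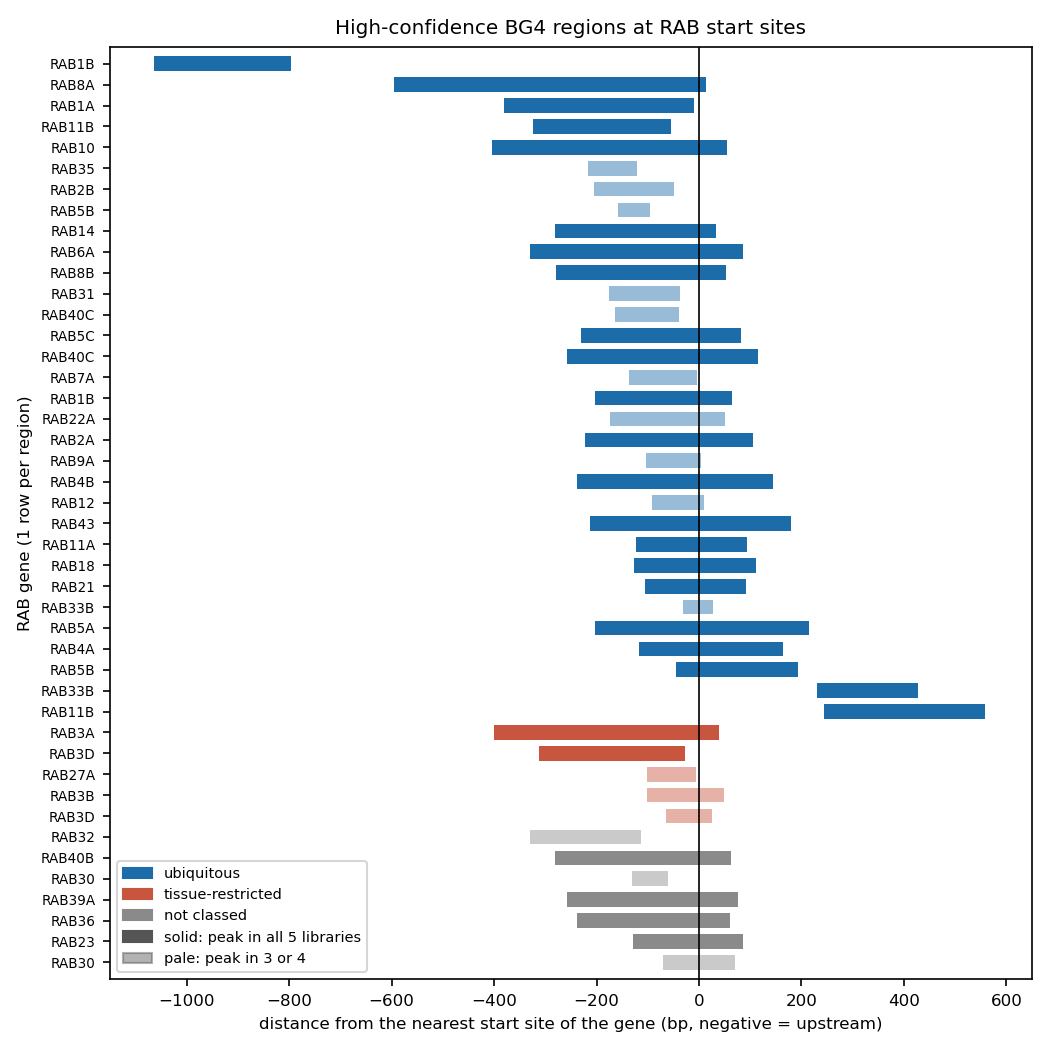
Extent of the 44 high-confidence BG4 regions relative to the nearest start site of their RAB gene (x axis, bp, negative is upstream), coloured by class; solid bars had a peak in all 5 libraries and pale bars in 3 or 4. Most bars touch or lie just upstream of the start site, and the outlying bars belong to RAB1B upstream and to RAB11B and RAB33B downstream.

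The machinery that drives the RAB cycle was examined with lists of genes chosen by function, with earlier results of these data known. Genes of escort, GDP dissociation inhibition and prenylation, which carry RAB proteins and attach their lipid anchor, had a region at 5 of 8 (62.5%). CHML, a RAB escort protein, had folds of 8.72 and 10.1 in replicate 1 and 8.27, 8.68 and 10.0 in replicate 2, and RABIF and GDI2 also had peaks in all libraries. CHM, the other escort gene, had no peak. Exchange factors, which load GTP, had a region at 22 of 39 (56.4%), with TRAPPC3, DENND3 and DENND4A the highest ranked. CCZ1, which acts on RAB7, had no peak. GTPase-activating proteins, which end the active state, had a region at 23 of 37 (62.2%). Among them RABGAP1L had folds of 9.26 to 10.9 and TBC1D5 folds of 8.52 to 14.0, while RAB3GAP1 had no peak and SGSM3 had peaks in 1c and 2c alone. TBC1D17 had folds of 8.19 to 8.90. Effectors had a region at 23 of 46, with MICALL2 the highest ranked at folds of 10.4 to 20.1, followed by RAB11FIP4 and the Golgi tether USO1. MLPH, the melanosome effector of RAB27A, had no peak, and MICALL1 had peaks in 2a and 2c alone. The ARF and ARL GTPases, a separate family of traffic GTPases, had a region at 10 of 24 (41.7%), with ARF1 the highest ranked at folds of 10.6 to 12.8, followed by ARL16. ARL1 and ARL10 had no peak. All 5 shares lay above the 34.4% of all genes, and strict CpG islands lay at 75.0% to 97.3% of the genes in these lists, against 74.8% of all genes. Summing the shares of all genes of the same island class, GC quintile and start site number gave 2.88 genes for the escort list, 18.2 for exchange factors, 17.4 for GTPase-activating proteins, 20.2 for effectors and 9.66 for ARF and ARL genes. Observed were 5, 22, 23, 23 and 10 genes.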

How the data were processed

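Peaks were called with MACS2 on hg19, per the submitters' processing notes; no aligner, control, setting or version is given in the sources used here. In the deposited peak lists the score equalled 10 times −log10 p, rounded down, in all peaks of 4 libraries and in 10078 of 10079 peaks of 1c. The fold enrichment deposited by the authors, a ratio of summit signal to local background, and the deposited −log10 p and −log10 q were the authors' and rank peaks within 1 list only. Lists were per library, not pooled. The file of high-confidence regions holds coordinates and no value. Depth is unknown, and no interval was computed from it.

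Start sites came from coding transcripts of the basic set of GENCODE release 44 mapped to GRCh37, within 1 kb on either side. The main start site was that of the canonical transcript. Strict CpG islands met 3 limits, a 500 bp window, 0.55 for GC and 0.65 for observed over expected CpG. Percentiles are ranks of fold within a list. RAB7B, on the tissue-restricted list of 18, matched no gene used here. Gene-level counts were compared with all protein-coding genes, without a test, and shares per library were averaged within biological replicates. Python 3.11.15, pandas 2.3.3 and pysam 0.24.0 were used, and the counting was tested on simulated data. Members, classes and lists were chosen with earlier results of these data known. Fold in each library was given for the 12 members with the highest lowest percentile and the first 2 of each group, and up to 3 genes with and 2 without a region were named per list; a few that this rule names, and 1 sequence, are not reported here. Folds of RAB22A, RAB7A, RAB9A, RAB12 and RAB3B by library, and of further members as ranges or single values, were added after their values were seen. The all-transcript start sites were used first; the basic set replaced them after seeing the data, and both are compared in the closing section.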

Additional observations from a re-analysis of the deposited data

Results flagged for a closer look

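A total of 46 values were measured in each of the 5 libraries. The gap between the most distant library and the nearest other was set against the whole range, and 4 exceeded the limit of 0.71. Chance exceeds it in about 1 of 20 for 5 independent, normally distributed values. These were technical libraries of 2 biological replicates, and percentiles and shares are bounded, so that rate need not hold here. The fold enrichment of RAB8A was at percentile 56.8 in library 2b, against 98.2 to 99.4 in the others. That of RAB4A was at percentile 41.1 in library 1c, against 87.7 to 97.0. That of RAB3D was at percentile 9.83 in library 2c, against 44.4 to 56.7, but these are the strongest peaks of either of its regions. At the region present in all 5 libraries the percentiles were 56.5 and 56.7 in replicate 1 and 9.60, 30.9 and 9.83 in replicate 2, so 2c did not stand apart there. The share of RAB genes not classed with a peak was 35.7% in library 1c, against 42.9% in each of the other libraries, a difference of 1 gene. The libraries that stood apart were not the same for the 4 values, and the depth of each library is unknown.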

How the results depend on the processing

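The count of RAB genes with a region kept within 1.5 times the 37 reported in all 15 alternatives (26 to 38). It was 26 with regions in all 5 libraries only, against 21.9% of all genes, and 28 with peaks past a −log10 p of 10, against 24.5%. The difference between ubiquitous and tissue-restricted members stayed positive in all 18 alternatives and was 49.8 points with the members not classed counted as ubiquitous, against 63.6 points as reported. Leaving out 1 library and requiring 3 of the other 4 gave 32 to 35 RAB genes and differences of 50.7 to 63.0 points, and of 48.1 to 61.9 points over members with a strict CpG island. The same step gave 4 to 5 escort and prenylation genes, 17 to 21 exchange factors, 21 to 23 GTPase-activating proteins, 19 to 23 effectors and 9 to 10 ARF and ARL genes. All genes then had a region in 29.9% to 32.2% of cases. With regions in all 5 libraries only, escort and prenylation genes numbered 3 (37.5%), exchange factors 12 (30.8%) and GTPase-activating proteins 15 (40.5%). Such a region was present at 21.9% of all genes. Exchange factors numbered 14 with peaks past a −log10 p of 10, where 24.5% of all genes had a region. In alternatives added after seeing the data, peaks in both libraries of replicate 1 gave 15 GTPase-activating proteins. They gave regions at 22 ubiquitous and 3 tissue-restricted members, and at 28.4% of all genes. Peaks in at least 2 libraries of replicate 2 gave regions at 28 ubiquitous and 4 tissue-restricted members, and at 34.8% of all genes. Start sites of all protein-coding transcripts gave 37 RAB genes. The cause of these shifts was not tested beyond the fewer regions that a stricter rule leaves. No paired analysis was possible because the libraries form 1 group with no second group to pair.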

Other observations

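RAB genes on the X chromosome had a region at 1 of 6, namely RAB9A, where 15.5% of all genes on X did, and RAB genes on chromosome 19 had one at 5 of 5 (RAB3A, RAB3D, RAB4B, RAB8A and RAB11B), where 41.9% of all genes did. On the autosomes alone 26 of 30 ubiquitous members had a region (86.7%), against 4 of 14 tissue-restricted members (28.6%). Over the autosomes and X together 34.4% of all genes had one. Of the 6 RAB genes with a divergent protein-coding partner 5 had a region, the exception being RAB24 beside PRELID1, and 61.7% of all genes with such a partner had one. RAB28 had peaks in 2b and 2c at its start site with percentiles of 82.9 and 68.7, and 0 peaks in the other 3 libraries.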
